A study of Homo sapiens with 8 samples.

Results

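R3HDM1, R3HDM2 and R3HDM4 are 3 human genes whose proteins carry an R3H domain, and their mRNA levels were followed in A549 cells, a line from a human lung adenocarcinoma, after treatment with indisulam, SPHINX31 or both. The 3 genes were chosen by name among the 60624 genes of the count files, and R3HDM2 was chosen for its fall with indisulam in these same libraries. All 3 were among the 18661 genes with enough counts to be tested. Indisulam is an aryl sulfonamide that binds the splicing factor RBM39 to the DCAF15 ubiquitin ligase, after which RBM39 is degraded. SPHINX31 inhibits SRPK1, a kinase of the serine/arginine-rich splicing proteins. The 4 groups were untreated cells, cells given indisulam alone, cells given SPHINX31 alone and cells given the combination, with 2 libraries in each. All groups were the same unmodified A549 line, and the series' design calls the libraries of a group technical duplicates, so the p-values below measure only the spread between these libraries. One protocol text, repeated in the labels of all libraries whatever their treatment, gave 2 µM indisulam for 18 h. The methods for the A549 experiment gave 0.5 µM indisulam and 5 µM SPHINX31 for 24 h, and gave 2 µM and 18 h for a separate experiment in a pancreatic cancer line. Which of these applied to the libraries was not settled from the files. The libraries were stranded polyA-selected RNA-seq, with 51727369 to 63186989 counts on genes (median 57337791), and gene-level counts do not separate the isoforms of a gene.

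The R3H domain is a short fold, named after a conserved arginine and histidine, that binds single-stranded nucleic acids. R3HDM1 and R3HDM2 belong to a small family with the brain protein ARPP21, in which the R3H domain is followed by a SUZ domain, another RNA-binding motif. R3HDM4 carries the R3H domain and is little studied. Other proteins use the same domain in RNA decay, in helicases and in transcriptional repressors, so that the domain name joins genes with different functions.

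The 3 genes lie on different chromosomes and differ in size. R3HDM1 (ENSG00000048991, GRCh38 chromosome 2, 135531455 to 135725270, plus strand) spans 193816 bp and has 27 exons in its canonical transcript. R3HDM2 (ENSG00000179912, chromosome 12, 57253762 to 57431043, minus strand) spans 177282 bp and has 24 exons. R3HDM4 (ENSG00000198858, chromosome 19, 896503 to 913245, minus strand) spans only 16743 bp and has 8 exons. Among the 14010 tested protein-coding genes, R3HDM1 and R3HDM2 stood at percentiles 91.3 and 90.1 for genomic span, and R3HDM4 at percentile 30.1. The GC content of the exons was 45.2% for R3HDM1, 52.5% for R3HDM2 and 61.4% for R3HDM4. R3HDM1 also hosts a microRNA gene, MIR128-1, in an intron, and ARPP21 hosts its sister gene MIR128-2. Both loci give the same mature product, shown here because it is what the hosts share beyond the protein domain, with the seed (bases 2 to 8) in capitals.
hsa-miR-128-3p: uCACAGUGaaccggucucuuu
The MIR128-1 copy lies at chr2:135665446-135665466 (plus strand). Both microRNA genes were at 0 counts in all 8 libraries, which were made from polyA RNA, and mature microRNAs carry no polyA tail.

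The 250 bases upstream of each RefSeq start site (RefSeq, GRCh38.p14, the entry of each gene nearest to its annotated 5′ end) are shown because mRNA of all 3 genes was lower in the groups that received indisulam. Capitals mark matches on either strand to the CCAAT box, to the GC box spelled GGGCGG, to the first part of the cyclic AMP response element, spelled TGACG, and to the ETS core, spelled CCGGAA. No match overlapped another.
R3HDM1 promoter, chr2:135531234-135531483 (+ strand): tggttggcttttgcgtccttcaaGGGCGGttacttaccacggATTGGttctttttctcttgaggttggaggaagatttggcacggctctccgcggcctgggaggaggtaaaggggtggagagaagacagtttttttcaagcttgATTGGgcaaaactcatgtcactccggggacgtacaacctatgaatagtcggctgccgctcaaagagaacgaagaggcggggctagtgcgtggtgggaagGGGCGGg
R3HDM2 promoter, chr12:57431044-57431293 (- strand): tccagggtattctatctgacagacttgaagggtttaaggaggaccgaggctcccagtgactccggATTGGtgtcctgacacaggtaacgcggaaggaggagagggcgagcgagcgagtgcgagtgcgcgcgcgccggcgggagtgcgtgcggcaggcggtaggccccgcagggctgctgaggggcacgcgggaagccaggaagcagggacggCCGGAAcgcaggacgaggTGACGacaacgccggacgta
R3HDM4 promoter, chr19:913220-913469 (- strand): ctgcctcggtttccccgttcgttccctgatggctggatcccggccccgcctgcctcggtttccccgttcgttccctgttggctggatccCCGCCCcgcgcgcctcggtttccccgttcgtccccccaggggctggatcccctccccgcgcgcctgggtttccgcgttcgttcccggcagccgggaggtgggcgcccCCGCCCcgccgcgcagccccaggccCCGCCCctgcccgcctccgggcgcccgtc
The R3HDM1 window held 2 CCAAT and 2 GGGCGG matches, at -208 and -106 and at -227 and -7 from the start site. The R3HDM2 window held 1 CCAAT match at -185, 1 CCGGAA match at -38 and 1 TGACG match at -20. The R3HDM4 window held 3 GGGCGG matches, at -161, -54 and -29. Of 35116 promoter windows of this length, 32.0% held CCAAT, 42.6% held GGGCGG, 21.2% held TGACG and 14.5% held CCGGAA. The TATA box spelled TATAAA, present in 10.7% of all windows, and the E box CACGTG, present in 6.34%, were in none of the 3. The GC content rose from 54.4% in the R3HDM1 window to 66.4% for R3HDM2 and 76.8% for R3HDM4, with 14, 28 and 33 CpG dinucleotides. No motif of this set was shared by the 3 windows.

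The R3HDM2 count may cover only part of its mRNA. A read-through gene, ENSG00000258830 (chromosome 12, 57249609 to 57296484, same strand), is annotated across its 3′ part and shares 1877 of the 5941 exon bases of R3HDM2 (31.6%), or 42.6% of its canonical transcript. Reads there fit both genes, and the read-through gene was at 0 counts in every library. How the counting treated such reads was not given in the sources used here. The other genes overlapping a member, RNU6-512P and MIR128-1 in R3HDM1 and RNU6-879P in R3HDM2, were at 0 counts as well, and no gene overlapped R3HDM4.

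R3HDM2 mRNA was at 18.5% of its control level with indisulam alone and at 19.2% when indisulam was added to SPHINX31, and R3HDM1 and R3HDM4 were lower by smaller amounts. Levels are given as CPM, counts scaled to a common library total with TMM factors. In bulk RNA, fewer cells with a transcript and less of it per cell cannot be told apart. R3HDM2 stood at 47.0 and 47.6 CPM in the untreated libraries, from 2905 and 2836 reads. With indisulam it stood at 9.23 and 8.26 CPM, from 537 and 421 reads. With SPHINX31 it stood at 54.9 and 53.9 CPM, and with the combination at 10.6 and 10.3 CPM. The 4 groups did not overlap, in the order SPHINX31, untreated, combination and indisulam, and the libraries of each group lay close together. How many of all tested genes separate the groups in this way was not counted. The separation is therefore a description of R3HDM2, which was chosen for its fall, and does not set it apart from other genes.

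R3HDM1 was at 64.7 and 69.8 CPM in untreated cells and at 52.1 and 50.2 CPM with indisulam. It was at 65.4 and 71.8 CPM with SPHINX31 and at 39.8 and 44.8 CPM with the combination. The SPHINX31 and untreated libraries overlapped, the indisulam libraries lay below them, and both combination libraries were lowest. R3HDM4 was at 53.7 and 49.7 CPM in untreated cells, 32.6 and 38.2 CPM with indisulam, 59.9 and 49.96 CPM with SPHINX31, and 35.9 and 35.4 CPM with the combination. Its values formed a higher pair of groups without indisulam and a lower pair with it, and within each pair the groups overlapped. How common such orders of the libraries are among all tested genes was not counted, so those of R3HDM1 and R3HDM4 are descriptions only. The 2 SPHINX31 libraries of R3HDM4 lay farther apart than any other duplicates of the 3 genes on the plot of levels by library.

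**Figure D1:**
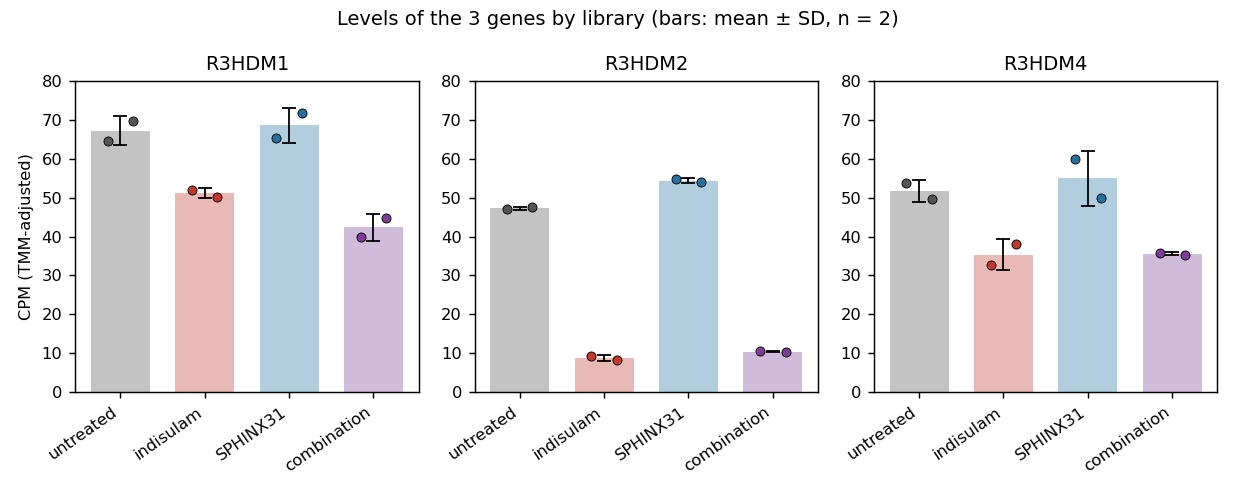
Level of each gene in CPM (counts scaled to a common library total with TMM factors, linear axis from 0) in the 8 A549 libraries. Points are libraries, bars the mean and error bars the SD (n = 2). R3HDM2 sits at 47.3 and 54.4 CPM on average in untreated and SPHINX31-treated cells and at 8.75 and 10.4 CPM in the groups that received indisulam, while R3HDM1 and R3HDM4 stay above 30 CPM in every library.

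Per length, R3HDM4 was the most abundant of the 3 transcripts. In untreated cells it reached 17.5 ± 0.951 CPM per kilobase of exon (SD, n = 2), against 8.52 ± 0.462 for R3HDM1 and 7.96 ± 0.0665 for R3HDM2. By the longest transcript R3HDM1 was also above R3HDM2, at 14.1 against 10.7. Without the bases shared with the read-through gene, R3HDM2 reached 11.6 CPM per kilobase. That length was shortened for R3HDM2 alone while its full count was kept, so it does not settle the order of R3HDM1 and R3HDM2. With indisulam the levels per kilobase of exon were 11.96 ± 1.34 for R3HDM4, 6.48 ± 0.166 for R3HDM1 and 1.47 ± 0.116 for R3HDM2. R3HDM2 was then the lowest of the 3 under each of these lengths, at 1.98 by its longest transcript and 2.15 without the shared bases.

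The comparison of indisulam with untreated cells was the one on which R3HDM2 was selected, so its values are a description without a test. R3HDM2 was at 18.5% of its untreated level (log2 fold change -2.43, SE 0.0686). R3HDM4 was at 68.3% (log2 fold change -0.55, SE 0.0885) and R3HDM1 at 76.1% (log2 fold change -0.39, SE 0.0693). In this comparison 43.7% of all tested genes were called by edgeR's quasi-likelihood test at an adjusted p under 0.05, 23.5% as lower and 20.1% as higher.

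The combination against SPHINX31 alone measured the response to indisulam in the 4 libraries outside that comparison. Earlier results of these data were known when this test was chosen, and its spread was estimated over all 8 libraries. The test is therefore not independent of the choice of R3HDM2. R3HDM2 fell from 54.4 ± 0.716 to 10.4 ± 0.233 CPM (SD, n = 2 each), or 19.2% of its level with SPHINX31 alone. Its log2 fold change was -2.38 (SE 0.067, 95% interval -2.53 to -2.24), with an adjusted p of 9e-11 (edgeR's quasi-likelihood test, adjusted by Benjamini-Hochberg over all tested genes). Among the 9980 genes whose mean log2 CPM was 3 or more, R3HDM2 had rank 2 from the largest decrease, and among all 18661 it had rank 115. R3HDM1 fell from 68.6 ± 4.54 to 42.3 ± 3.54 CPM, a log2 fold change of -0.70 (95% interval -0.85 to -0.55, edgeR adjusted p = 2.94e-06). R3HDM4 fell from 55.0 ± 7.06 to 35.6 ± 0.381 CPM, a log2 fold change of -0.62 (95% interval -0.81 to -0.43, edgeR adjusted p = 6.31e-05). The interval of R3HDM2 did not overlap those of R3HDM1 and R3HDM4, which overlapped each other. Because R3HDM2 was chosen for its large fall, this is a description, and differences between the 3 genes were not tested. All 3 genes were called lower, beside 26.5% of all tested genes called lower, 23.4% called higher and 49.9% called in either direction. A decrease was thus common in this comparison, and the sizes of the R3HDM1 and R3HDM4 decreases gave them ranks 605 and 777 among the 9980 genes.

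**Figure D2:**
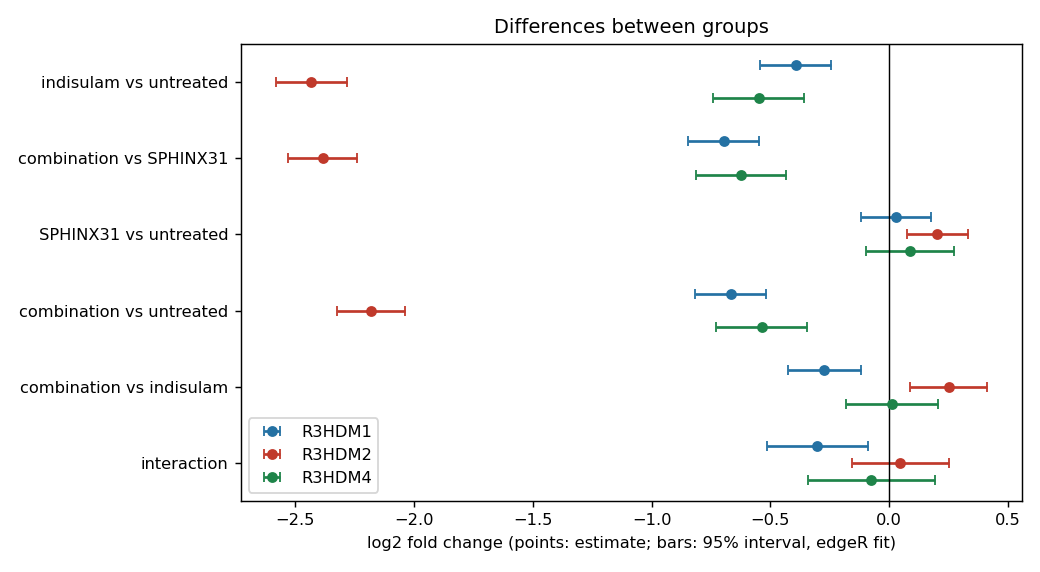
Log2 fold change of R3HDM1, R3HDM2 and R3HDM4 (horizontal axis) in the 5 comparisons and in the interaction, the difference between the indisulam effect with and without SPHINX31. Points are edgeR estimates and bars their 95% intervals. The R3HDM2 estimates with and without SPHINX31, -2.38 and -2.43, lie side by side. They lie far below those of R3HDM1 and R3HDM4, a description only, since R3HDM2 was chosen for its fall.

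With SPHINX31 alone neither R3HDM1 nor R3HDM4 was called, which leaves differences within the intervals below undecided. The log2 fold change was 0.03 for R3HDM1 (95% interval -0.12 to 0.18, edgeR adjusted p = 0.838) and 0.09 for R3HDM4 (95% interval -0.10 to 0.27, edgeR adjusted p = 0.589), beside 8.61% of all tested genes called. For R3HDM2, whose untreated libraries were part of its selection, the log2 fold change was 0.20 (SE 0.0595) and was not tested. This value corresponds to 115% of the untreated level and is a description only.

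The combination against untreated cells gave log2 fold changes of -0.67 for R3HDM1 (SE 0.0698, edgeR adjusted p = 4e-06) and -0.54 for R3HDM4 (SE 0.0882, edgeR adjusted p = 0.000209), both lower, beside 26.3% of all genes called lower and 23.8% called higher. R3HDM2 was at 22.04% of its untreated level, a log2 fold change of -2.18 (SE 0.0669) that was not tested. This comparison shares the combination libraries with the one above and is not a second observation.

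The combination was also compared with indisulam alone, gene by gene, and differences between the 3 genes were not tested. R3HDM1 was lower with the combination than with indisulam alone, with 42.3 ± 3.54 against 51.1 ± 1.31 CPM and a log2 fold change of -0.27 (95% interval -0.42 to -0.12, edgeR adjusted p = 0.032). That call was lost under scaling by total counts (-0.23, edgeR adjusted p = 0.0662), without indisulam replicate 1 (-0.24, edgeR adjusted p = 0.142) and without combination replicate 1 (-0.18, edgeR adjusted p = 0.249). In this comparison 7.5% of all tested genes were called, and 4.32% of all were called lower. R3HDM4 differed by 0.01 on the log2 scale (95% interval -0.18 to 0.21, edgeR adjusted p = 0.96). R3HDM2 was 0.25 higher (SE 0.0747) with the combination, at 119% of the level with indisulam, and was not tested because the indisulam libraries were part of its selection.

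Whether the response to indisulam differed in the presence of SPHINX31 was asked with an interaction term, which called 0% of all tested genes (0 genes by edgeR's quasi-likelihood test, 1584 genes at an unadjusted p under 0.05, and 33 genes by DESeq2). For R3HDM1 the interaction was -0.30 (95% interval -0.51 to -0.09, edgeR adjusted p = 0.448). It was -0.08 for R3HDM4 (95% interval -0.34 to 0.19, edgeR adjusted p = 0.901). For R3HDM2 it was 0.05 (95% interval -0.16 to 0.25) and was not tested. The values for R3HDM1 and R3HDM4 did not pass the threshold, which with 2 libraries a group leaves the sizes within these intervals undecided.

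The other genes of proteins with an R3H domain had mixed directions. Of 9 other such genes, all tested, 1 was lower and 2 were higher with the combination than with SPHINX31 alone, and 6 were not called, beside 26.5% lower and 23.4% higher over all tested genes. Their median log2 fold change was 0.06 (range -0.17 to 0.41), against 0.00 over all tested genes. IGHMBP2, a helicase acting on RNA and DNA, rose from 18.9 ± 0.221 to 25.0 ± 2.21 CPM (log2 fold change 0.41, edgeR adjusted p = 0.000634). NKRF, a repressor of NF-κB target genes, rose from 37.5 ± 0.201 to 46.7 ± 0.659 CPM (0.32, edgeR adjusted p = 0.000287). NFX1, a repressor that binds the X box of MHC class II promoters, fell from 99.2 ± 3.02 to 88.3 ± 0.258 CPM (-0.17, edgeR adjusted p = 0.0133). The 6 others were the deadenylase gene PARN, the m6A reader gene YTHDC2, R3HCC1, R3HCC1L, SPAG7 and ARPP21. ARPP21, the closest relative of R3HDM1 and R3HDM2 in domain order, had only 5 to 12 reads per library, so a change in it was hardly detectable at this depth.

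With indisulam against untreated cells, 0 of the 9 were lower and 4 were higher, beside 23.5% and 20.1% of all tested genes, with a median of 0.22 (range -0.05 to 0.43). With SPHINX31 alone 0 of the 9 were called, beside 8.61% of all, with a median of 0.04. The combination against untreated cells gave 1 lower and 3 higher (median 0.08), beside 26.3% and 23.8% of all. Against indisulam it gave 1 lower and 0 higher (median -0.01), beside 4.32% of all called lower and 7.5% in either direction. The interaction called 0 of them. SZRD1, another gene named for the SUZ domain that R3HDM1 and R3HDM2 share, was higher with indisulam both without SPHINX31 (log2 fold change 0.28) and with it (0.32, edgeR adjusted p = 0.000125). On the plot of the R3H genes the members lie below these 9 in the comparisons that add indisulam, and among them with SPHINX31 alone.

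**Figure D3:**
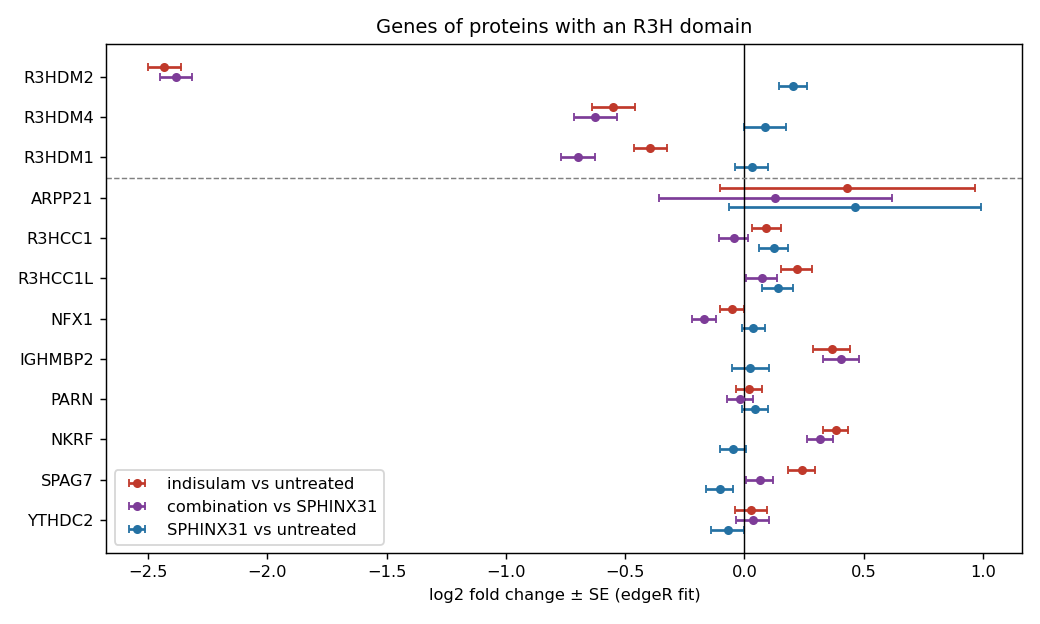
Log2 fold change (horizontal axis) of the 3 genes above the dashed line and of 9 other genes of R3H domain proteins below it, in 3 comparisons. Points are edgeR estimates and bars their SE. R3HDM2 stands near -2.4 in both comparisons that add indisulam, and the 9 others lie between -0.17 and 0.43 in them, ARPP21 with wide errors from at most 12 reads.

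Other annotated genes with an R3H symbol were at or near the lower limit of counting. The R3HDM2 pseudogenes R3HDM2P1 and R3HDM2P2 were at 0 counts in all libraries. R3HDM2-DT, a transcript that starts divergently at the R3HDM2 promoter, had 0 to 3 counts and R3HDML had 0 to 1. R3HDML-AS1 had 10 to 29 counts and was not called in any comparison.

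The genes around each member were compared to see whether their levels moved with it. Of 25 tested genes within 250 kb of R3HDM2, 10 were lower and 3 higher with the combination than with SPHINX31 (median log2 fold change -0.10), beside 26.5% lower and 23.4% higher over all tested genes. Within 100 kb of R3HDM2, 8 of 13 were lower and 1 higher (median -0.64). Within 500 kb, 17 of 42 were lower and 5 higher (median -0.14). Whether these counts depart from those around other genes was not tested. MARS1, the cytosolic methionyl-tRNA synthetase gene, had a log2 fold change of -1.08 (edgeR adjusted p = 1.44e-08, 14217 to 32492 reads). STAC3, 2.574 kb downstream of R3HDM2, had a log2 fold change of -1.11 (edgeR adjusted p = 0.000297, 33 to 128 reads). STAC3 overlaps the same read-through gene as R3HDM2. ARHGAP9 (-2.09, 1 to 15 reads) and TAC3 (1.46, 3 to 11 reads) were called on very few reads, and ARHGAP9 and MARS1 overlap each other on opposite strands, and TAC3 overlaps MYO1A, so that reads of these may not be told apart. No tested neighbour had a log2 fold change as low as that of R3HDM2. That follows largely from the choice of R3HDM2 for its fall, and does not set it apart from its neighbours.

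Within 250 kb of R3HDM1, 5 genes were tested, of which 1 was lower and 3 were higher with the combination than with SPHINX31 (median 0.25). Over all tested genes 26.5% were lower and 23.4% higher. Within 100 kb of R3HDM1, 1 of 3 was lower and 1 higher. The lower one was ZRANB3, a DNA translocase gene that starts 0.237 kb upstream on the opposite strand, with a log2 fold change of -0.58 (edgeR adjusted p = 8.18e-05). It was named after its values were seen, for its position. Among the higher ones only the pseudogene G3BP1P1 passed a log2 change of 1 (1.37, 10 to 30 reads). Within 250 kb of R3HDM4, 25 genes were tested in the same comparison, of which 6 were lower and 5 higher (median 0.09). These counts were near the shares over all tested genes. Within 100 kb of R3HDM4, 3 of 12 were lower and 2 higher (median 0.10). GRIN3B, a glutamate receptor subunit gene, had a log2 fold change of -1.05 (edgeR adjusted p = 0.00179, 35 to 105 reads), and overlaps TMEM259 on the opposite strand.

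The genes whose values across the 8 libraries were closest to those of R3HDM2 were sought among 9936 genes, by the root mean square difference of log2 CPM relative to the untreated mean. This is a description, since the choice of R3HDM2 fixed its pattern. Of the 5 closest, 4 are described here. The closest was SLC7A11, the cystine transporter gene, at 0.0929 log2 units. It followed R3HDM2 in each group, with log2 differences from untreated of -2.32 with indisulam, 0.20 with SPHINX31 and -2.10 with the combination, against -2.43, 0.20 and -2.18 for R3HDM2. Its level was far higher, with 63.4 CPM per kilobase of exon in untreated cells against 7.96 for R3HDM2. DMAC2L, a mitochondrial ATP synthase factor gene, was at 0.164. NTSR1, the neurotensin receptor gene, was at 0.254 and ALDH1L2, a mitochondrial folate enzyme gene, at 0.334. With SPHINX31 the log2 difference from untreated was 0.46 for NTSR1, against 0.20 for R3HDM2. By Pearson correlation, which ignores the size of the change, the 5 closest genes were BBIP1, SLC7A11, AKR1A1, CCNH and PREPL, with 1 gene in common, and 115 genes had a correlation above 0.99 over these 8 libraries. Such correlations rest on libraries that fall into a pair of levels, and hold little information on single genes.

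The epithelial origin of the A549 line was checked with marker genes. The keratin genes KRT7, KRT8 and KRT18 were between 1158 and 4103 CPM and EPCAM was between 25.4 and 33.6 CPM, whereas CD3E was at 0 counts and PTPRC, CDH5, COL3A1 and DCN had at most 8. PECAM1 (83 to 133 reads) and COL1A1 (175 to 270 reads) were detected at low levels. The leukocyte markers summed to at most 0.0524 CPM, the endothelial ones to 1.56 to 2.40 CPM and the fibroblast ones to 3.25 to 4.69 CPM. The summed CPM of the 4 epithelial markers ran from 9702 to 9791 in untreated, 8817 to 9121 in indisulam, 8729 to 8746 in SPHINX31 and 8336 to 8425 in combination libraries. For the targets of the compounds, RBM39 mRNA was higher with indisulam both without SPHINX31 (log2 fold change 1.22) and with it (1.13), and SRPK1 mRNA was lower (-0.33 and -0.19). All 4 differences were called (edgeR adjusted p from 4.41e-09 to 0.0112). These mRNA values do not measure the loss of the RBM39 protein.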

How the data were processed

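The data were 8 polyA-selected, stranded RNA-seq libraries of A549 cells, 2 in each of 4 groups, which were technical duplicates, so that p-values measure only the spread between these libraries. The authors deposited raw read counts per Ensembl gene (unnormalized). The submitters' processing notes name HISAT2 2.2.1, HTSeq and GRCh38. The annotation, strand setting and treatment of overlaps in counting were not given in the sources used here. Rows for reads without a gene (no feature, ambiguous, not unique) were left out. Reads on genes were 83.0% to 86.0% of all counted, those without a feature 3.67% to 5.88% and ambiguous ones 4.82% to 6.03%.

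Symbols, positions and exon lengths came from GENCODE 44 (99.7% of tested genes had a symbol) and promoter and microRNA sequences from RefSeq. Counts were fitted with edgeR 4.0.16 in R 4.3.3 (filterByExpr, TMM scaling, 1 coefficient per group over all 8 libraries, quasi-likelihood test, Benjamini-Hochberg adjustment, threshold 0.05, biological coefficient of variation 0.0491). The code was tested on simulated data. CPM and CPM per kilobase were computed from the counts. The members, the R3H list and the tests were chosen with earlier results of these data known. Members were not tested in indisulam against untreated cells, and R3HDM2 was tested only against SPHINX31. The genes named were the members, all R3H symbols, the R3H list (values where called), neighbours called with an absolute log2 change of at least 1, overlapping genes, the 5 genes closest to R3HDM2 (prior count 2), of which 1 is not reported here, RBM39, SRPK1 and SZRD1. Outside this rule, uncalled R3H genes, ZRANB3, genes overlapping a named neighbour and the 5 closest genes by Pearson correlation were named after their values were seen. Alternatives were DESeq2 1.42.0, other scaling, filters and lengths, fits of the compared libraries alone, a replicate block, other windows, and leaving out each library. The level without bases shared with the read-through gene and the exchanged replicate numbers were chosen after seeing the data.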

Additional observations from a re-analysis of the deposited data

How the results depend on the processing

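The decreases of R3HDM1, R3HDM2 and R3HDM4 with the combination against SPHINX31 kept their direction and call under every alternative run. Without 1 library they ranged from -0.79 to -0.60 for R3HDM1, from -2.40 to -2.36 for R3HDM2 and from -0.74 to -0.48 for R3HDM4. With indisulam against untreated cells R3HDM2 ranged from -2.52 to -2.35 and R3HDM4 from -0.66 to -0.44.

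R3HDM1 with the combination against indisulam was no longer called under scaling by total counts (-0.23, edgeR adjusted p = 0.0662), and ranged from -0.36 to -0.18 without 1 library. R3HDM2 ranged from 0.17 to 0.34 in that comparison. Uncalled values near 0 changed sign without 1 library. R3HDM1 with SPHINX31 became -0.025 without untreated replicate 1 and -0.042 without SPHINX31 replicate 2, in a range of -0.042 to 0.093. R3HDM4 with SPHINX31 became -0.052 without SPHINX31 replicate 1 (range -0.052 to 0.21). R3HDM4 with the combination against indisulam became -0.096 without indisulam replicate 1 (range -0.096 to 0.12). Its interaction became 0.035 without indisulam replicate 2 and 0.070 without SPHINX31 replicate 1 (range -0.19 to 0.070). The interaction of R3HDM2, which was not tested, ranged from -0.035 to 0.133. The cause was not tested.

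Genes called without 1 library numbered 482 to 1810 for SPHINX31 against untreated cells and 440 to 1612 for the combination against indisulam, where fewer libraries were fitted. The interaction called 0 to 1 genes without 1 library, 94 with a filter of at least 1 count and 33 with DESeq2. Scaling by total counts moved the higher and lower calls to 1341 and 515 for SPHINX31 against untreated, from 921 and 685, and to 942 and 498 for the combination against indisulam, from 592 and 807. Levels per kilobase in untreated cells by the longest transcript were 14.1 for R3HDM1, 10.7 for R3HDM2 and 28.7 for R3HDM4, and 11.6 for R3HDM2 without the shared bases.

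The deviations of same-numbered libraries were correlated over 9980 genes. The correlation was -0.566 for untreated with indisulam, -0.492 for indisulam with SPHINX31 and 0.452 for untreated with SPHINX31. With the combination it was 0.012 to 0.167. Both negative values involved the indisulam libraries, and whether their numbers are exchanged was not settled. The numbers were therefore not taken to pair the libraries. With a replicate block the calls numbered 7851 for indisulam against untreated (8952 with the indisulam numbers exchanged), 9074 for the combination against SPHINX31, 1330 for SPHINX31, 9077 for the combination against untreated, 1169 for the combination against indisulam and 0 for the interaction. The 2 libraries in each group limit the precision of every SD.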
